A study of Homo sapiens with 105 samples.

Results

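CEACAM1, CEACAM5, CEACAM6 and CEACAM7 are cell adhesion molecules of the carcinoembryonic antigen family, and they were taken by name from a table of 63241 genes. These 4 genes were followed in the human cell line Caco-2, grown from an adenocarcinoma of the colon, that had received vesicles of gut bacteria or the RNA of these vesicles. All 4 passed the filter on low counts, as did 18775 genes in all. Membrane vesicles (MVs) of L. casei and E. faecalis and outer membrane vesicles (OMVs) of P. mirabilis were added to the cells. By the labels there were 1.5e+11 vesicles of L. casei, 7.5e+09 of E. faecalis and 6e+09 of P. mirabilis. The vesicle RNA was transfected with Lipofectamine at 100 ng (L. casei), 5 ng (E. faecalis) and 2 ng (P. mirabilis). PBS was the control of the vesicles, and a non-targeting siRNA at 100, 5 or 2 ng was the control of the RNA. LPS of P. mirabilis was put into the medium (0.2 ng per µl in the labels) or transfected (1 ng per µl), whereas the methods of the study give both doses per ml. Cells were collected at 10 and 24 h, and L. casei, PBS and the siRNA at 100 ng also at 48 h. A single tumour line in culture lacks the other cell types of a gut, and it stands in for colon epithelium only as far as a cancer line does.

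CEACAM proteins are glycoproteins of the immunoglobulin superfamily on the apical surface of the colon, where they form part of the glycocalyx. CEACAM1 spans the membrane and carries inhibitory signalling motifs in its long tail, whereas CEACAM5, CEACAM6 and CEACAM7 are held by a GPI anchor. CEACAM1, CEACAM5 and CEACAM6 are known as receptors for adhesins of several bacteria. CEACAM5, the carcinoembryonic antigen used as a tumour marker, and CEACAM6 are often raised in colorectal tumours. CEACAM7 is known from mature cells at the top of the colonic crypt and is often reduced in such tumours.

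The genes lie on chromosome 19 of GRCh38. In GENCODE, CEACAM7 occupies chr19:41673303-41706976 on the minus strand, CEACAM5 chr19:41708585-41730433 and CEACAM6 chr19:41750977-41772211, both on the plus strand, and CEACAM1 chr19:42507304-42561234 on the minus strand. The 100 bases before each RefSeq start (GRCh38.p14) are shown to set 1 short site of the members side by side. The stretches differ at other positions too. Capitals mark the letters aligned to the E-box CACGTG of CEACAM6, a site type bound by the factors USF1 and USF2. The stretches run from chr19:42528482-42528581 (minus strand) for CEACAM1, chr19:41708526-41708625 (plus) for CEACAM5, chr19:41755430-41755529 (plus) for CEACAM6 and chr19:41688271-41688370 (minus) for CEACAM7.
CEACAM1: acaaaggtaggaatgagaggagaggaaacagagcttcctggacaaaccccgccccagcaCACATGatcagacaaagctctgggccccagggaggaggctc
CEACAM5: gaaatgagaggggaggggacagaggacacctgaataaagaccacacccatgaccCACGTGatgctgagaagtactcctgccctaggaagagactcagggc
CEACAM6: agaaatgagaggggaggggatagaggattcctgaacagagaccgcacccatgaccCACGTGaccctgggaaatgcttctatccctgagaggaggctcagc
CEACAM7: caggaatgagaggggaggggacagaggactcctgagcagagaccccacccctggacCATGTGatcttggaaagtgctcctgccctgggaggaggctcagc

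CEACAM5 and CEACAM6 held the same 6 letters, which ended 41 and 40 bases before the start. CEACAM1 differed from CEACAM6 by G4A and CEACAM7 by C3T, with positions counted from 1 at the first capital. CACGTG, a palindrome searched on both strands, was found in 7.26% of 35114 RefSeq promoter windows of equal length, which reach further up and into each gene than the stretches above. Over whole windows the promoters of CEACAM5 and CEACAM7 were most alike, with 81.4% identical positions. CEACAM6 and CEACAM7 shared 80.5%, CEACAM5 and CEACAM6 74.7%, and CEACAM1 shared 64.9% to 71.2% with the others. The interferon response motif GAAANNGAA (8.11% of promoters) was matched in CEACAM1 and CEACAM6. The NF-kappaB motif GGGRNNYYCC (11.3%), where R is A or G and Y is C or T, was matched in CEACAM1 alone. GGGCGG (45% of promoters) was matched in CEACAM1 and CEACAM6 and TATAAA (11.5%) in CEACAM6. TGANTCA (7.71%) and GGAAGT (22.8%) were matched in none of the 4 windows. These matches are letters in a window and were not tested as binding sites.

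The libraries fell into 28 groups. Of these libraries 66 were read here, and 39 from lanes 2 to 4 of flow cell 1 were set aside, since many of them lay nearer to another time than the labelled one in earlier results of these data. This left 20 groups of 2 libraries, 6 of 3 and 2 of 4. Total counts of the 66 libraries ran from 632659 to 8558755, with a median of 5563438. The labels do not place replicate numbers in separate cultures, so the p-values cover only how far libraries vary, which may be technical. In bulk RNA, fewer cells with a transcript and less of it per cell cannot be told apart. All 7 epithelial markers (among them EPCAM, KRT8 and VIL1) and all 7 enterocyte markers (among them CDX2, SI and APOA1) had a median above 1 CPM, which are counts scaled to 1e6 of the library size after TMM scaling.

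CEACAM6 gave most counts of the 4 genes in these cells and CEACAM7 fewest. Over the 66 libraries CEACAM6 ranged from 5.34 to 137 CPM (median 61.9, 21465 counts in all) and CEACAM1 from 3.54 to 78.5 CPM (median 13.9, 6524 counts). CEACAM5 ranged from 1.44 to 39.0 CPM (median 10.2, 4272 counts). CEACAM7 ran from 0 to 6.74 CPM (median 0.318, 292 counts), with no count in 29 of 66 libraries. CEACAM7 thus rests on few reads, so its pooled counts are given beside its tests. On a scale per kb of exon, medians were 20.9 CPM per kb for CEACAM6, 2.57 for CEACAM5, 2.51 for CEACAM1 and 0.120 for CEACAM7. On this scale CEACAM6 was followed by CEACAM1, CEACAM5 and CEACAM7 in 39 of 66 libraries and by CEACAM5, CEACAM1 and CEACAM7 in 26. In the 1 library left CEACAM1 lay above CEACAM6.

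**Figure D1:**
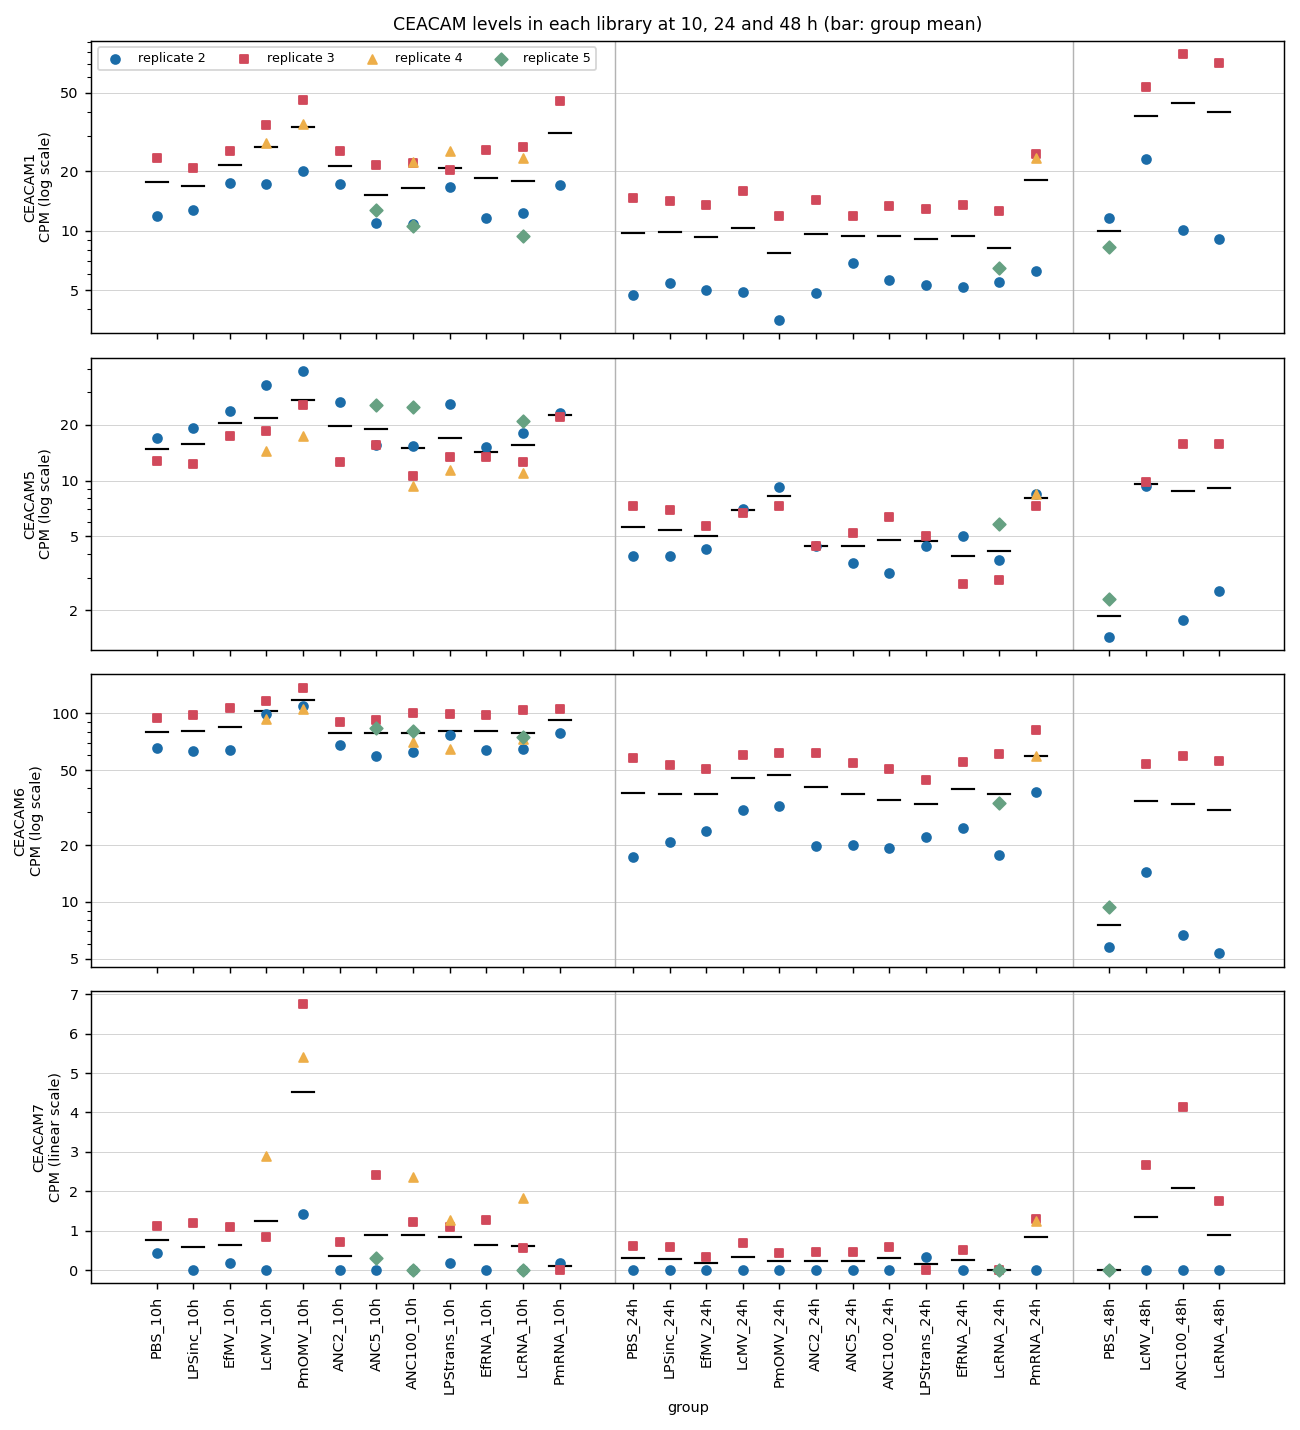
CEACAM levels (CPM, log scale for the upper 3 panels and linear for CEACAM7) in each of 66 libraries by group and time, with marker and colour for the replicate number and a bar for the group mean. CEACAM5, CEACAM6 and CEACAM7 had their highest group mean after P. mirabilis OMVs at 10 h, and CEACAM1 at 48 h.

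Across the 28 groups, P. mirabilis OMVs at 10 h had the highest mean of CEACAM5 (27.3 CPM), CEACAM6 (117 CPM) and CEACAM7 (4.52 CPM). CEACAM1 was highest with the siRNA at 100 ng at 48 h, at a mean of 44.3 CPM over libraries of 10.1 and 78.5. The lowest means of CEACAM5 (1.87 CPM) and CEACAM6 (7.57 CPM) were those of PBS at 48 h. CEACAM7 was lowest, at a mean of 0, both with PBS at 48 h and with L. casei RNA at 24 h. CEACAM1 was lowest with P. mirabilis OMVs at 24 h (7.70 CPM). Groups next to each other in this order overlapped in their libraries in all 27 neighbouring pairs for CEACAM1, CEACAM6 and CEACAM7, and in all but 3 for CEACAM5. The order of groups therefore mixes treatment with time and replicate number.

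Time and replicate number together held 90.3% of the sum of squares of log2 CPM for CEACAM1, 82.3% for CEACAM5, 93.8% for CEACAM6 and 73.8% for CEACAM7. Treatments within these classes held 5.89%, 11.2%, 4.46% and 16.1%. CEACAM6, the most abundant member, had a median of 65.2 CPM in the libraries of replicate 2 at 10 h, of 21.4 at 24 h and of 6.24 at 48 h. In replicate 3 its medians were 100.2, 56.7 and 56.1 CPM. CEACAM5, the tumour antigen, had medians of 21.2, 4.38 and 2.16 CPM in replicate 2 and of 13.4, 6.03 and 15.7 CPM in replicate 3. CEACAM1 had 14.7, 5.22 and 10.8 CPM in replicate 2, against 25.3, 13.5 and 71.0 CPM in replicate 3. CEACAM7 had medians of 1.10, 0.485 and 2.67 CPM in replicate 3, whereas replicate 2 had no count in 7 of 12 libraries at 10 h, 11 of 12 at 24 h and 4 of 4 at 48 h. Replicate 4, with 5 libraries at 10 h, had a median of 2.37 CPM of CEACAM7 and 75 counts.

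**Figure D2:**
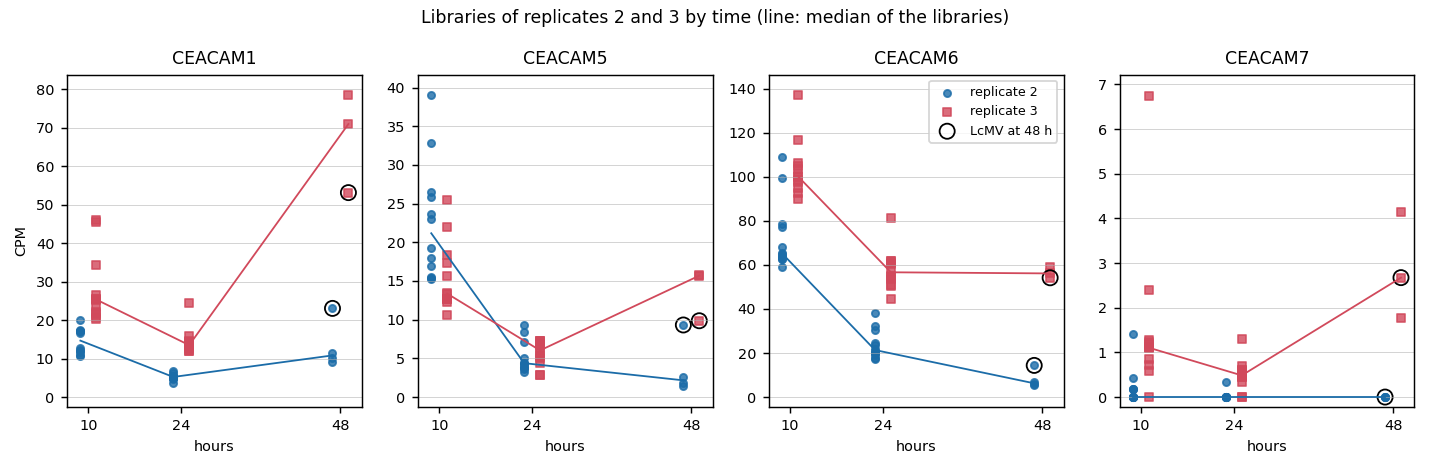
Levels (CPM, linear) of each member against hours in the libraries of replicate 2 (circles) and replicate 3 (squares), with lines through the medians and rings around L. casei MVs at 48 h. CEACAM6 of replicate 2 went down to a median of 6.24 CPM at 48 h while that of replicate 3 went from 100.2 at 10 h to 56.1, and CEACAM5 crossed over, with replicate 2 higher at 10 h and replicate 3 higher at 48 h.

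The replicate number was a term of its own in the fit (an additive block), and its coefficient showed the size of this split. Replicate 3 exceeded replicate 2 for CEACAM7 by 3.48 ± 0.31 (log2 ± SE, adjusted p = 1.07e-16), for CEACAM1 by 1.32 ± 0.12 (2.15e-12) and for CEACAM6 by 0.96 ± 0.11 (1.06e-09), all adjusted p from edgeR's quasi-likelihood test with Benjamini-Hochberg adjustment. CEACAM5 differed by -0.16 ± 0.15 (adjusted p = 0.38). The 3 of 4 members called compare with 62.2% of all genes tested, so the split was not particular to the CEACAM genes. When the block was fitted separately within each time, the split of all 4 members was wider at 48 h than at 10 h, a difference called for 16.5% of all genes. CEACAM6 of replicate 3 was higher by 0.52 at 10 h, 1.29 at 24 h and 2.66 at 48 h, and CEACAM1 by 0.91, 1.46 and 2.25. CEACAM5 was lower in replicate 3 at 10 h by -0.60 (edgeR adjusted p = 0.000171), did not pass the test at 24 h (0.16, adjusted p = 0.541) and was higher by 1.59 at 48 h. At 10 h all 4 members were called against 50% of all genes, at 24 h 3 of 4 against 52.9%, and at 48 h 4 of 4 against 36.5%. Pooled over libraries, CEACAM7 had 109 counts in replicate 3 and 13 in replicate 2 at 10 h, a scaled ratio of 8.92 (95% exact interval 5.00 to 17.3). At 24 h it had 34 and 2 counts, a ratio of 19.9 (5.09 to 171). At 48 h the 51 counts of replicate 3 faced 0 in replicate 2, at least 22.2-fold higher if the floor is 3 counts over the pool. Such intervals and floors cover counting error only.

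P. mirabilis OMVs at 10 h were the treatment with the clearest CEACAM pattern. In each of the 3 replicate numbers kept, the OMV library had the highest level of the libraries kept of that time and number. This held for each of the 4 genes (12 of 12 values), and how many of all genes did likewise was not counted. Replicate 4 at 10 h kept 5 libraries, with none of PBS, LPS in the medium or E. faecalis MVs among them. CEACAM1 of replicate 3 led by little, at 46.12 against 45.45 CPM with P. mirabilis RNA, a library with 29 CEACAM1 counts. OMV replicate 5, among the libraries set aside, had 4.54 CPM of CEACAM1 and no count of CEACAM7. CEACAM7, the gene of mature colonocytes, had 9, 56 and 30 counts in OMV replicates 2, 3 and 4, or 1.41, 6.74 and 5.41 CPM. PBS replicates 2 and 3 had 1 and 8 counts, or 0.424 and 1.11 CPM. All OMV libraries lay above both PBS libraries, and OMV replicate 2 was above PBS of either number although replicate 2 was low in CEACAM7 throughout. The pooled counts were 95 with OMVs and 9 with PBS, a scaled ratio of 4.99 (95% exact interval 2.52 to 11.2). The PBS pool lacks replicate 4, so this ratio mixes treatment with replicate number.

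CEACAM5 measured 39.0, 25.5 and 17.3 CPM in OMV replicates 2, 3 and 4 and 17.0 and 12.7 CPM in PBS replicates 2 and 3. The groups did not overlap, by a margin of 17.3 against 17.0 CPM. CEACAM6, which binds bacterial adhesins as CEACAM5 does, measured 109, 137 and 106 CPM with OMVs and 65.4 and 94.9 CPM with PBS, again without overlap. How many of all genes separated these few libraries as CEACAM5, CEACAM6 and CEACAM7 did was not counted. CEACAM1, the signalling member, measured 19.97, 46.1 and 34.6 CPM with OMVs and 11.9 and 23.4 CPM with PBS. Its groups overlapped, since OMV replicate 2 lay below PBS replicate 3. Within the same replicate number, OMVs exceeded PBS by a ratio of 1.68 to 1.97 for CEACAM1, 2.02 to 2.30 for CEACAM5, 1.44 to 1.67 for CEACAM6 and 3.33 to 6.06 for CEACAM7.

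**Figure D3:**
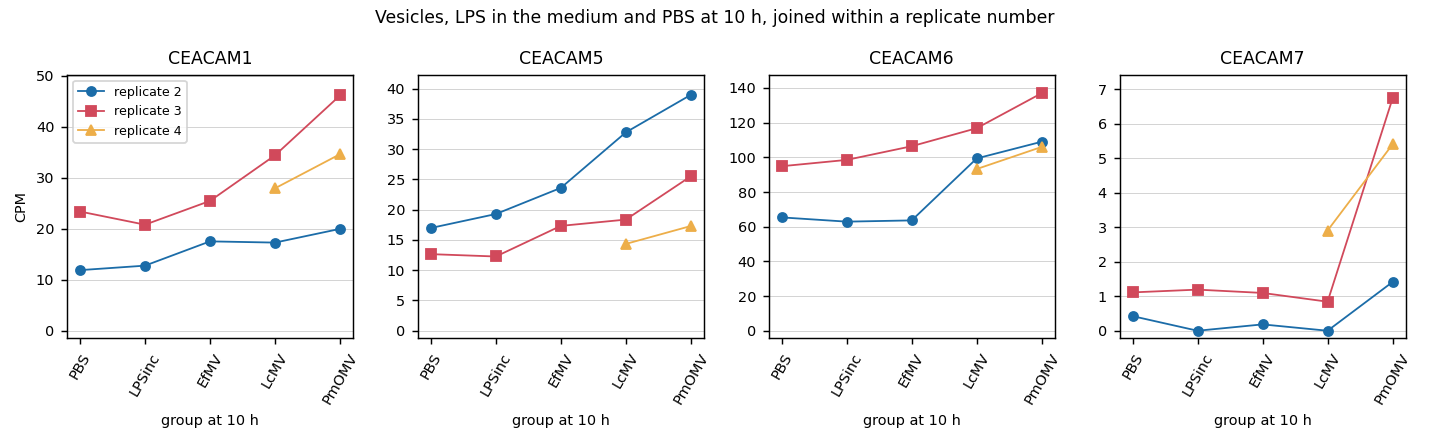
Levels (CPM, linear) at 10 h with PBS, LPS in the medium and vesicles of the 3 species, joined within each replicate number. In all 4 panels the OMV point of P. mirabilis is the highest of its line, and CEACAM7 of OMV replicates 3 and 4 reached 6.74 and 5.41 CPM.

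In the test with the additive block, CEACAM7 rose after OMVs by 2.29 ± 0.56 on the log2 scale (edgeR adjusted p = 0.0181). CEACAM5 (1.10 ± 0.42, adjusted p = 0.253), CEACAM1 (0.88 ± 0.35, 0.269) and CEACAM6 (0.70 ± 0.33, 0.404) did not pass it. This was 1 of 4 members against 1.06% of all genes tested, and the median change was 0.99 over the members and -0.0024 over all genes. With the block fitted within each time, all 4 rose against 3.63% of all genes, with edgeR adjusted p of 0.0025 for CEACAM7 (2.24 ± 0.52), 0.00403 for CEACAM6 (0.63 ± 0.13), 0.0246 for CEACAM5 (1.04 ± 0.27) and 0.047 for CEACAM1 (0.84 ± 0.24). The changes were of like size in both fits and the standard errors were smaller in the second. The call of CEACAM7 in the first fit was lost without OMV replicate 3 (1.98, adjusted p = 0.222) and without PBS replicate 3 (0.24, adjusted p = 1), which leaves a PBS group of 1 library with 1 count, assumed to vary like the others. At an unadjusted edgeR p below 0.05, all 4 members passed in the first fit, as did 2161 of 18775 genes. DESeq2 gave CEACAM7 no adjusted p, at an estimate of 2.38 ± 0.85 and an unadjusted DESeq2 p of 0.00496, and called none of the other 3.

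Against LPS in the medium at 10 h, the OMV libraries were again higher in every same-numbered pair for all 4 genes. The share of all genes higher in both pairs was not counted. CEACAM7 had 0 and 7 counts in the LPS libraries (0 and 1.19 CPM), and it was higher with OMVs by 2.46 ± 0.59 (edgeR adjusted p = 0.00726). The pooled 95 and 7 counts gave a ratio of 8.46 (95% exact interval 3.95 to 21.6). The OMV pool holds replicate 4, which the LPS pool lacks, so this ratio mixes treatment with replicate number. The call of CEACAM7 was 1 of 4 members against 3.18% of all genes. CEACAM6 had 62.9 and 98.5 CPM with LPS, CEACAM5 19.3 and 12.3 CPM and CEACAM1 12.8 and 20.8 CPM, values near those of PBS. With the block within each time all 4 members were higher with OMVs than with LPS against 8.01% of all genes (edgeR adjusted p = 0.000656 for CEACAM7, 0.000924 for CEACAM6, 0.00805 for CEACAM5 and 0.0105 for CEACAM1). The CEACAM7 call of the additive fit was lost without OMV replicate 3 (2.15, adjusted p = 0.127) and without LPS replicate 3 (4.61, adjusted p = 0.429), and with flow cell and lane as terms (2.01, adjusted p = 0.0811). The comparisons with PBS and with LPS share the OMV libraries.

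Among vesicles at 10 h, CEACAM7 was higher with those of P. mirabilis than with those of either other species. The number of vesicles differed as well, at 6e+09 of P. mirabilis, 1.5e+11 of L. casei and 7.5e+09 of E. faecalis. Species and number therefore cannot be told apart here, and the study says it was not designed to compare effects between species. L. casei MV libraries of replicates 2, 3 and 4 had 0, 5 and 15 counts (0, 0.843 and 2.91 CPM), and E. faecalis MV libraries of replicates 2 and 3 had 1 and 5 counts (0.184 and 1.10 CPM). OMVs were higher than L. casei MVs by 1.98 ± 0.41 (edgeR adjusted p = 0.00375) and than E. faecalis MVs by 2.31 ± 0.62 (0.0452), against 0.506% and 0.852% of all genes. The pooled counts of 95 against 20 gave a ratio of 3.80 (95% exact interval 2.33 to 6.51), and 95 against 6 gave 7.82 (3.46 to 21.8). The E. faecalis pool lacks replicate 4, unlike the other 2 pools. With the block within each time CEACAM7 remained called in both (adjusted p = 0.000305 and 0.00682), against 1.26% and 3.4% of all genes, and CEACAM6 was then also higher than with E. faecalis MVs (0.56 ± 0.13, adjusted p = 0.00891). With flow cell and lane as terms neither was called (1.59, adjusted p = 0.163, and 1.87, 0.233). The L. casei difference was lost without L. casei replicate 3 (1.43, adjusted p = 0.472) or OMV replicate 3 (1.77, 0.145). The E. faecalis difference remained called only without OMV replicate 4, and was 1.36 (0.942) without E. faecalis replicate 3, 2.47 (0.0641) without its replicate 2, 2.08 (0.134) without OMV replicate 2 and 2.01 (0.329) without OMV replicate 3. CEACAM5 and CEACAM6 with L. casei MVs were intermediate, at 32.8, 18.4 and 14.3 CPM and at 99.4, 117 and 93.3 CPM.

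At 24 h the OMV libraries no longer stood above the others in CEACAM7, with 0 and 2 counts in replicates 2 and 3 against 0 and 3 with PBS. CEACAM1 was 3.54 and 11.9 CPM with OMVs and 4.72 and 14.7 CPM with PBS, and CEACAM6 was 32.1 and 61.9 CPM against 17.3 and 58.2 CPM. CEACAM5 was 9.25 and 7.25 CPM with OMVs and 3.94 and 7.25 CPM with PBS. None of the 4 was called against PBS (0.112% of all genes) or against LPS in the medium (0.154%). Against L. casei MVs (0.0692%) and E. faecalis MVs (0.0479%) at 24 h none was called either. The effect at 24 h minus that at 10 h was -2.68 for CEACAM7, -1.19 for CEACAM1, -0.50 for CEACAM5 and -0.31 for CEACAM6, with edgeR adjusted p of 0.857, 0.83, 0.967 and 0.969 and 0.032% of all genes called. A difference between the times was thus not shown for any member.

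With L. casei MVs at 10 h, CEACAM1, CEACAM5 and CEACAM6 were above PBS in both same-numbered pairs, by ratios of 1.46 to 1.47, 1.45 to 1.93 and 1.23 to 1.52. The share of all genes above PBS in both pairs was not counted. CEACAM7 lay below PBS in both pairs, at 0 against 0.424 CPM and 0.843 against 1.11 CPM, but on few counts. These were 0 against 1 count in replicate 2 and 5 against 8 in replicate 3. MV replicate 4, which had no PBS partner kept, had 15 counts (2.91 CPM). With it, the pooled counts were 20 against 9, a ratio of 1.31 (exact interval 0.57 to 3.27). This ratio mixes treatment with replicate number. The estimate was 0.31 ± 0.69, so no direction was shown for CEACAM7. No member passed the test (0.0373% of all genes did), and none did at 24 h (0.00533%). Between L. casei and E. faecalis MVs no member was called at 10 h (0.00533% of all genes) or 24 h (0.0107%). E. faecalis MVs against PBS gave no call among the members or among all genes at 10 h (0%) or 24 h (0%).

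At 48 h CEACAM5 was higher with L. casei MVs than with PBS. The MV libraries of replicates 2 and 3 had 59 and 59 counts (9.31 and 9.86 CPM), and the PBS libraries of replicates 2 and 5 had 7 and 13 counts (1.44 and 2.30 CPM). The groups did not overlap, though how many of all genes separated likewise was not counted. CEACAM5 rose by 2.75 ± 0.79 (edgeR adjusted p = 0.0482), as 1 of 4 members against 2.75% of all genes. The median change over the members was 2.29 with MVs. Against the same PBS libraries it was 2.05 with the siRNA at 100 ng, so a rise over PBS was not particular to MVs. CEACAM6 was 14.4 and 54.2 CPM with MVs and 5.78 and 9.36 CPM with PBS (1.83 ± 0.60, adjusted p = 0.0933, but 0.0193 by DESeq2 and 0.0215 without the robust option), and CEACAM1 was 23.1 and 53.2 CPM against 11.6 and 8.30 CPM (1.15 ± 0.42, adjusted p = 0.141). CEACAM7 had 0 and 16 counts with MVs in replicates 2 and 3 and none with PBS, and in replicate 2, the only number both groups had, it was at 0 in both. Its estimate with the block within each time was -0.20. PBS at 48 h held no library of replicate 3, the number in which all 4 members were highest at that time, so treatment and replicate number are in part confounded there. In replicate 2, MVs exceeded PBS by a ratio of 6.45 for CEACAM5, 2.49 for CEACAM6 and 2.00 for CEACAM1. In replicate 3, MVs lay below the siRNA at 100 ng, at ratios of 0.629, 0.915 and 0.677, whereas in replicate 2 they lay above it, at 5.27, 2.15 and 2.28. With the block within each time the CEACAM5 change was 1.78 ± 0.87 (edgeR adjusted p = 0.396), and the call was lost when any 1 of the 4 libraries was left out, at 2.89 (adjusted p = 0.111) without MV replicate 2, 2.64 (0.189) without MV replicate 3, 2.73 (0.219) without PBS replicate 2 and 2.77 (0.238) without PBS replicate 5.

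Vesicle RNA changed no CEACAM gene past the test against siRNA. In the 7 comparisons 0 of 28 tests were called by edgeR and 0 by DESeq2, and 0% of all genes were called in each. At an unadjusted edgeR p below 0.05, 0 of the 28 passed, beside 531 to 1182 of 18775 genes per comparison. The estimates of all 4 genes were highest with the RNA of P. mirabilis at 24 h. CEACAM5 measured 8.42, 7.28 and 8.50 CPM in replicates 2, 3 and 4 and 4.46 and 4.42 CPM with siRNA at 2 ng (1.01 ± 0.60, adjusted p = 0.843). CEACAM1 measured 6.22, 24.4 and 23.2 CPM against 4.85 and 14.3 CPM (0.75 ± 0.41, 0.799), and CEACAM6 38.2, 81.2 and 59.1 CPM against 19.8 and 61.9 CPM (0.63 ± 0.36, 0.828). CEACAM7 had 0, 7 and 6 counts (1.24 ± 0.96, adjusted p = 0.899). P. mirabilis RNA against transfected LPS gave no call at 10 h (0% of all genes) or 24 h (0%).

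LPS by either route gave 0 of 16 calls by edgeR and 0 by DESeq2 against its control. After adjustment 0% of all genes were called in all 4 comparisons. At an unadjusted edgeR p below 0.05, LPS had 0 of the 16 tests, beside 451 to 724 of 18775 genes per comparison. Its estimates ran from -0.09 to 0.03 for CEACAM1, from -0.09 to 0.15 for CEACAM5 and from -0.30 to 0.11 for CEACAM6, and were widest for CEACAM7, from -0.17 to 1.28. The siRNA at 100 ng against PBS, the background of transfection itself, gave 0 of 12 calls by edgeR and 0 by DESeq2. Its estimates reached 2.46 for CEACAM5, 1.64 for CEACAM6, 1.16 for CEACAM1 and 3.71 for CEACAM7. At 48 h its median change was 2.05 over the members and 0.0187 over all genes. The share of all genes called was 0% at 10 h, 0% at 24 h and 0.282% at 48 h. At an unadjusted edgeR p below 0.05, 3 of the 12 passed. So did 1199 of 18775 genes at 10 h, 807 at 24 h and 2072 at 48 h. Over the 22 comparisons of a treatment with its control or with LPS, 3 of 88 tests of a member were called, and they lay in the comparisons that called 1.06%, 3.18% and 2.75% of all genes.

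**Figure D4:**
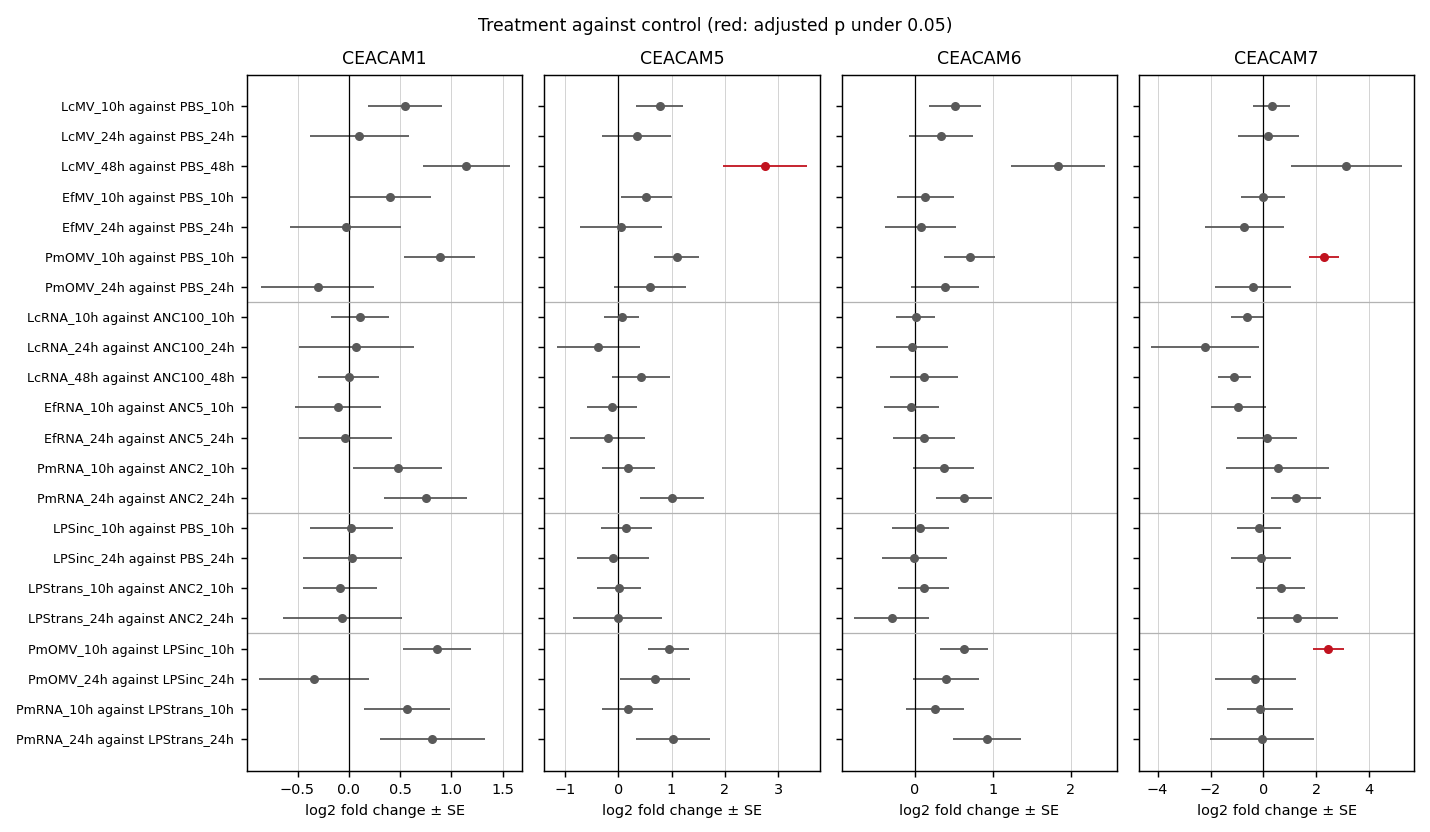
Log2 fold change ± SE of each member in the 22 comparisons of a treatment with its control or with LPS (66 libraries, additive replicate block), with calls at an adjusted p under 0.05 in red. The 3 red points are CEACAM5 with L. casei MVs at 48 h (2.75) and CEACAM7 with P. mirabilis OMVs at 10 h against PBS (2.29) and against LPS (2.46).

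Times were compared within PBS and within the siRNA at 100 ng, with 5 of 16 tests of a member called. From 10 to 24 h with the siRNA at 100 ng, CEACAM6 fell by 1.30 ± 0.36 (edgeR adjusted p = 0.0105) and CEACAM5 fell by 1.63 ± 0.54 (0.038), 2 of 4 members against 14.1% of all genes. The libraries at 10 h held 62.6, 100.6, 70.6 and 80.8 CPM of CEACAM6 in replicates 2 to 5, and those at 24 h held 19.2 and 50.6 CPM in replicates 2 and 3. CEACAM5 held 15.3, 10.6, 9.30 and 25.0 CPM at 10 h and 3.18 and 6.34 CPM at 24 h. The CEACAM6 call was lost without either 24 h library (-1.13, adjusted p = 0.138, without replicate 2, and -1.57, 0.0535, without replicate 3). The CEACAM5 call was kept only without replicate 3 at 10 h. It was lost without replicates 2 (-1.60, 0.0771), 4 (-1.61, 0.0576) or 5 (-1.55, 0.0757) at 10 h and without replicates 2 (-1.07, 0.432) or 3 (-2.23, 0.0556) at 24 h. With PBS none of the 4 was called from 10 to 24 h (7.15% of all genes), at -1.13 ± 0.40 for CEACAM6 (edgeR adjusted p = 0.0821) and -1.40 ± 0.59 for CEACAM5 (0.17). With the block within each time, CEACAM1, CEACAM5 and CEACAM6 fell in both controls, by 1.26, 1.84 and 1.63 with PBS (16.2% of all genes) and by 1.24, 1.99 and 1.75 with the siRNA (23.3%), at edgeR adjusted p of 6.05e-08 or below for CEACAM6 and of 0.0157 or below for the others.

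From 24 to 48 h, CEACAM6 with PBS fell by 1.95 ± 0.60 (edgeR adjusted p = 0.0199), 1 of 4 members against 17.8% of all genes. It was called in 1 of 4 cases when a single library was left out, and was -1.45 (0.269) without replicate 3 at 24 h, -1.87 (0.139) without replicate 2 and -2.05 (0.113) without replicate 5 at 48 h. CEACAM1 with the siRNA at 100 ng rose by 2.03 ± 0.38 (0.00022), from 5.60 and 13.3 CPM to 10.1 and 78.5 CPM in replicates 2 and 3. Without siRNA replicate 3 at 48 h its change was 0.85 (0.237). CEACAM7 was called in the same comparison (2.65 ± 0.84, 0.0198), on 0 and 23 counts at 48 h against 0 and 3 at 24 h, so 2 of 4 members were called against 15.3% of all genes. This call rested on replicate 3, as the estimate was -1.35 (0.709) without siRNA replicate 3 at 48 h, 3.82 (0.373) without replicate 3 at 24 h, 2.56 (0.0578) without replicate 2 at 24 h and -0.63 ± 0.86 (0.69) with the block within each time. In that fit CEACAM1 rose by 1.51 ± 0.35 (0.00149) and CEACAM6 fell by 1.201 ± 0.26 (0.000762) with the siRNA (20.5% of all genes), and CEACAM6 fell by 1.88 ± 0.41 with PBS (0.00107, 18.6%).

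Other genes of the family and of its surroundings were followed in 7 lists, and few members of them moved with OMVs at 10 h. Of 20 other CEACAM and pregnancy-specific glycoprotein genes, 4 were tested (CEACAM16, CEACAM18, CEACAM19 and the pseudogene CEACAM22P), and 0 of 4 were called in any comparison of a treatment with its control. The granulocyte genes CEACAM3 and CEACAM8 had 4 and 11 counts in all 66 libraries. Of the genes for transfer and remodelling of the GPI anchor, which CEACAM5, CEACAM6 and CEACAM7 need, 0 of 10 changed with OMVs at 10 h (median log2 change -0.07). Of the partners of CEACAM1 signalling, 0 of 13 tested changed against PBS (median 0.10), although the beta-catenin gene CTNNB1 was higher with OMVs than with LPS (0.34 ± 0.07, adjusted p = 0.00188).

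Among the apical adhesion and glycocalyx genes, 1 of 16 rose and 1 fell with OMVs at 10 h (median 0.08). The hyaluronan receptor CD44 rose by 1.09 ± 0.19 (edgeR adjusted p = 0.000142), and CDHR5, a protocadherin of the brush border, fell by 0.33 ± 0.09 (0.0342). CDHR5 was also the gene that fell among 8 tested of 14 colonocyte maturation genes, where 0 rose (median -0.16), beside the rise of CEACAM7. Among host receptors of bacterial adhesins, the syndecan SDC4 rose by 0.51 ± 0.08 (9.95e-06), 1 of 10 tested of 12 (median 0.03). Among transcription factors linked to CEACAM genes, the epithelial ETS factor EHF rose by 1.82 ± 0.44 (0.0156), 1 of 19 (median 0.01). These shares stand beside 1.06% of all genes in that comparison. SDC4 and EHF were also higher with OMVs at 24 h (0.56 ± 0.08 and 2.03 ± 0.38, adjusted p = 1.38e-05 and 0.00116), when no CEACAM member was called.

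With L. casei MVs at 48 h, beside CEACAM5, the transmembrane mucin MUC13 (1.15 ± 0.30, edgeR adjusted p = 0.0254) and the polymeric immunoglobulin receptor PIGR (3.86 ± 1.15, 0.0462) rose and CDHR5 fell by 0.37 ± 0.09 (0.0102), 3 of the 16 apical genes. The ephrin receptor EPHA2 rose by 1.25 ± 0.23 (0.00206), with PIGR 2 of 10 receptors of adhesins, beside 2.75% of all genes called. The NF-kappaB subunit RELB (1.15 ± 0.27, 0.0102) and SOX9 (0.53 ± 0.13, 0.016) rose, 2 of 19 transcription factors. In the lists of the GPI anchor, the other CEACAM genes and the CEACAM1 partners 0 genes changed in that comparison. When vesicle RNA was set against siRNA (7 comparisons), 0 genes of any list were called.

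The members' levels over the 66 libraries were compared with those of 14998 genes at a mean of at least 1 CPM by Pearson's r of log2 CPM, as a description, since these libraries share times and replicate numbers. CEACAM6 was most like MMP1, a collagenase (r = 0.951), NOLC1 (0.948), PTPRS (0.944), MYOF (0.941) and GART (0.940). CEACAM5 was most like the amino acid transporter SLC6A20 (0.913), SELENOI (0.912), the glucose transporter SLC2A1 (0.897), SAMD5 (0.891) and BRI3BP (0.887). CEACAM1 was most like LPGAT1 (0.913), the mucin MUC13 (0.875), UNC5B (0.862), LSR (0.851) and SLC25A24 (0.846). CEACAM7 lay below 1 CPM on average and was not compared. Among the members, CEACAM5 and CEACAM6 were most alike (r = 0.789), and still so within classes of time and replicate number (0.771). CEACAM1 and CEACAM7 came next (0.754), but within classes only 0.265 was left.

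CEACAM1 shares 185 exon bases (3.35% of its own) with the antisense gene LIPE-AS1, and no strand setting is stated for the counting, so reads there cannot be told apart. LIPE-AS1 had a median of 7.08 CPM, and it was higher with OMVs than with PBS at 10 h (0.91 ± 0.24, edgeR adjusted p = 0.0382). A readthrough gene of CEACAM5 and CEACAM6 shares 139 and 138 exon bases with them and held 0 counts. No stretch of 100 bases in the exons of the 4 members recurred elsewhere on chromosome 19. Of the 7 granulocyte markers none had a median above 1 CPM and FCGR3B had no count, and their summed level was 0.120 to 0.472 CPM with OMVs at 10 h and 0.417 to 1.70 CPM with PBS. The leukocyte gene PTPRC had a count in 2 of 66 libraries, while CD3E and CD14 exceeded a median of 1 CPM, as did COL1A1 and PECAM1 of 5 genes of fibroblasts and endothelium. The summed level of the 5 leukocyte markers was 7.71 to 9.73 CPM with OMVs at 10 h and 8.90 to 8.91 CPM with PBS. The 5 markers of fibroblasts and endothelium summed to 20.6 to 22.0 CPM with OMVs and 27.7 to 32.7 CPM with PBS, without overlap, and the 7 enterocyte markers to 2165 to 2573 CPM against 2535 to 2990 CPM. The part of these levels in the CEACAM results was not tested.

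The libraries set aside show how the members depend on that choice. At 24 h they held up to 133 CPM of CEACAM1, where the libraries kept reached 24.4, and 6 of 18 lay above these. CEACAM5 at 24 h lay above the kept range in 9 of 18. OMV replicate 5 at 10 h, among those set aside, had 4.54 CPM of CEACAM1, 7.38 of CEACAM5, 41.4 of CEACAM6 and no count of CEACAM7. PBS replicates 3 and 4 at 48 h had 44.7 and 94.6 CPM of CEACAM6 and 3.92 and 25.2 CPM of CEACAM5. With every library in the fit, time and replicate number held 50.8%, 50.4%, 73.7% and 40.9% of the sum of squares of CEACAM1, CEACAM5, CEACAM6 and CEACAM7, and no CEACAM gene was called in any comparison of a treatment with its control or with LPS.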

How the data were processed

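Ribosomal RNA was depleted from total RNA, and libraries were sequenced paired-end (DNBSEQ-G400). The authors aligned the reads to GRCh38 with STAR, removed duplicates with sambamba and counted with featureCounts, and they deposited raw counts per gene, whole numbers with no normalisation, for 63241 genes, with 66 libraries read here and 39 set aside. Gene IDs matched symbols exactly in 62030 cases and in 62666 when the version was left out, a number that includes the exact matches. Entries without a match kept their ID, and none was left blank.

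Groups came from the labels. The 4 genes, the gene lists, the rule for named genes and the libraries set aside (lanes 2 to 4 of flow cell 1) were chosen with earlier results of these data known. The rule named the 4 members in every comparison, list genes past the test and the 5 genes most like each member. Genes were kept by filterByExpr on all libraries (18775 genes). TMM scaling and edgeR's quasi-likelihood F test (robust, trended dispersion, two-sided, edgeR 4.0.16, R 4.3.3) were run on 66 libraries with a coefficient per group and the replicate number as an additive block, and calls needed a Benjamini-Hochberg adjusted p under 0.05 over all genes. Standard errors are the absolute log2 change over the square root of F. Log2 CPM used a prior count of 2. The script was tested on simulated data. Depth was 632659 to 8558755 counts per library, and 3 counts over a pool were taken as its floor. To check whether replicate numbers pair the libraries, deviations from group means were correlated between groups. Every pair lay over 0.1 in 32 of 32 comparisons (r from 0.234 to 0.674, median 0.460), but only 2 of these had 3 or more pairs and the labels do not say what a number stands for. A fit with the block within each time is given beside results whose call it changes. In it PBS at 48 h rests on 1 library, since replicate 5 had no partner there. Alternatives were no block, all libraries, RLE size factors, DESeq2 1.42.0, other filters, the robust option off, flow cell and lane as terms, and leaving out single libraries. Promoters were read from RefSeq windows (GRCh38.p14) and gene models from GENCODE.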

Additional observations from a re-analysis of the deposited data

Results flagged for a closer look

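The split between replicate numbers 2 and 3 differed between times for all 4 members, by a test of the difference itself in the fit with the block within each time (edgeR's quasi-likelihood test, Benjamini-Hochberg adjustment). The difference of replicate 3 over replicate 2 was larger at 48 h than at 10 h by 4.20 ± 1.42 on the log2 scale for CEACAM7 (adjusted p = 0.026), 2.19 ± 0.34 for CEACAM5 (1.35e-05), 2.14 ± 0.20 for CEACAM6 (1.05e-09) and 1.33 ± 0.23 for CEACAM1 (6.5e-05). In this test 16.5% of all genes were called. The 48 h side rests on 3 libraries of replicate 3 and 4 of replicate 2, and for CEACAM7 on 51 counts against 0. The labels do not say what a replicate number stands for, and its part in these differences was not tested.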

How the results depend on the processing

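The replicate block decided most calls. With no block, and with all libraries in the fit with or without the block, 0 members were called by edgeR for vesicles against PBS (2 as reported), for OMVs or OMV-RNA against LPS (1), between species (2) and between times (5). A replicate block of its own at each time made them 4, 4, 3 and 9. With flow cell and lane as terms they were 1, 0, 0 and 9. Vesicles against PBS had 1 call with no filter on low counts, with replicates 2 and 3 alone and without libraries under 1500000 counts, times had 2 calls with replicates 2 and 3 alone, and species had 1 with the robust option off. No alternative gave a call for vesicle RNA or LPS.

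CEACAM5 with L. casei MVs at 48 h was no longer called at 0.18 (all libraries, no block), 0.31 (all libraries, block), 2.32 (no block), 1.78 (block within each time), 2.74 (no filter), 2.78 (replicates 2 and 3 alone), 2.75 (without shallow libraries) and 1.66 (flow cell and lane), and lay between 2.64 and 2.89 when 1 library was left out. CEACAM7 with OMVs at 10 h against PBS was no longer called at 2.68 (all libraries, no block), 2.94 (all libraries, block) and 2.30 (no block), and lay between 0.24 and 2.65 without 1 library. CEACAM7 of the siRNA from 24 to 48 h reversed to -0.63 (block within each time) and -1.75 (flow cell and lane), and lay between -1.35 and 3.82 without 1 library. The cause of these shifts was not tested. DESeq2 called CEACAM5 with L. casei MVs (2.74, adjusted p = 0.00423) and gave CEACAM7 no adjusted p with OMVs at 10 h. RLE size factors changed no call, nor did a filter on the libraries kept, which was chosen after seeing the data. Precision was limited most for CEACAM7, with 292 counts over 66 libraries.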
